A study of Homo sapiens with 12 samples.

Results

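The MCM helicase mRNAs are the transcripts of MCM2, MCM3, MCM4, MCM5, MCM6 and MCM7, followed here through the reads at their poly(A) sites. Each gene was found by position: the sites on its strand within 1000 nt of 1 given 3′ end in hg19, which lay on chromosome 3 plus for MCM2, 6 minus for MCM3, 8 plus for MCM4, 22 plus for MCM5, 2 minus for MCM6 and 7 minus for MCM7. These windows held 36 of the 640413 sites in the table of the pull-downs, and 15 of the 36 reached 10 reads in a library. In the table of the cell fractions they held 28 of 189010 sites, and 10 reached 10 reads. The deposited tables name no genes, so each gene name rests on its given position. At 5 of the genes the site with the most reads lay no more than 2 nt from that position.

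Human HEK293T cells, an embryonic kidney line, were studied in 12 libraries made by 3'READS+, which reads the last bases before the poly(A) tail, so that 1 read stands for 1 transcript end whatever the transcript's length. In the pull-down part all cells were of a STAU1-knockout (KO) line and were transfected with STAU1-FLAG or with FLAG-GFP. STAU1 (Staufen1) is a protein that binds double-stranded stretches of RNA, and GFP served as an unrelated tagged protein. There were 4 groups of 2 libraries: the anti-FLAG pull-down (IP) from STAU1-FLAG cells, the input lysate of those cells, the IP from FLAG-GFP cells and their input. In the fraction part there was 1 library each of polysomal and cytoplasmic RNA from the KO line and of polysomal and cytoplasmic RNA from its isogenic wild-type (WT) control line. Each genotype was thus 1 established line, and the bait was STAU1 that the cells expressed transiently in place of their own.

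The 6 proteins form a ring that is loaded onto DNA at replication origins before S phase with the help of the origin recognition complex, CDC6 and CDT1. Joined by CDC45 and the GINS complex, the ring becomes the helicase that unwinds DNA at replication forks. The genes are classical targets of E2F transcription factors, so that their mRNAs accumulate in proliferating cells around the entry into S phase. MCM2 and MCM5 border the gate through which DNA enters the ring, and MCM2 also binds histones. MCM4, MCM6 and MCM7 form a subcomplex with helicase activity of its own in vitro. MCM2 and MCM4 have tails that the kinase CDC7 phosphorylates, and MCM6 binds CDT1.

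A shared E2F-type element can be read in at least 1 promoter of each gene that was matched. RefSeq promoter sequences (GRCh38.p14, 250 bases before to 50 after a gene's start) were matched by symbol for 4 of the genes, MCM2, MCM3, MCM6 and MCM7. These 4 genes had 6 promoter entries, and not every entry held a match. Each gene holds TTTCGCGC or TTTGGCGC on either strand in at least 1 entry, where a match and its reverse complement can overlap in the palindromic core. Counted in the same way, 1.40% of the 27305 genes with a promoter in the same table did so. The stretches of 30 bases below are shown because they are what these 4 genes share outside the read counts. Capitals mark the matched bases, and each is written 5′ to 3′ on the gene's strand.
MCM2, chr3:127598404-127598433 (+): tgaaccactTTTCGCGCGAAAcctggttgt
MCM3, chr6:52284728-52284757 (-): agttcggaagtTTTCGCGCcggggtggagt
MCM6, chr2:135876575-135876604 (-): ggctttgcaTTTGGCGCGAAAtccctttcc
MCM6, chr2:135876513-135876542 (-): ttggtcaggTTTGGCGCGAAAtctccagct
MCM7, chr7:100101388-100101417 (-): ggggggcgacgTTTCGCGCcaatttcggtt
A match is a description of these letters and was not tested as a binding site. Promoters were not measured in these libraries.

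In the inputs MCM5 was by far the most abundant of the 6 and MCM2 the least. In STAU1 inputs the order was MCM5 (1725 ± 57.2 CPM), MCM7 (527 ± 42.5), MCM3 (169 ± 14.3), MCM6 (75.7 ± 7.1), MCM4 (51.9 ± 28.6) and MCM2 (37.2 ± 4.4), as mean and SD of 2 libraries in CPM, read counts brought to a common library size after TMM scaling, which corrects for library composition. In GFP inputs it was MCM5 (1559 ± 201), MCM7 (604 ± 197), MCM3 (208 ± 3.0), MCM4 (84.5 ± 0.91), MCM6 (71.6 ± 0.14) and MCM2 (41.3 ± 4.2). In the STAU1 inputs the 2 libraries of MCM4 spanned those of MCM2 and overlapped those of MCM6, so these neighbours were not separated there, whereas in the GFP inputs no 2 neighbours overlapped. Counted as a share of all MCM reads in a library, which no scaling affects, MCM5 took 67.7% and 65.8% in the STAU1 inputs and 55.3% and 66.0% in the GFP inputs. In the fractions its share was lower, at 31.6% in KO polysomes, 42.3% in KO cytoplasm, 26.3% in WT polysomes and 38.2% in WT cytoplasm. The transfected cells and whole lysates of the inputs are not matched by any library of the fractions, so this contrast between the tables was not tested.

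**Figure D1:**
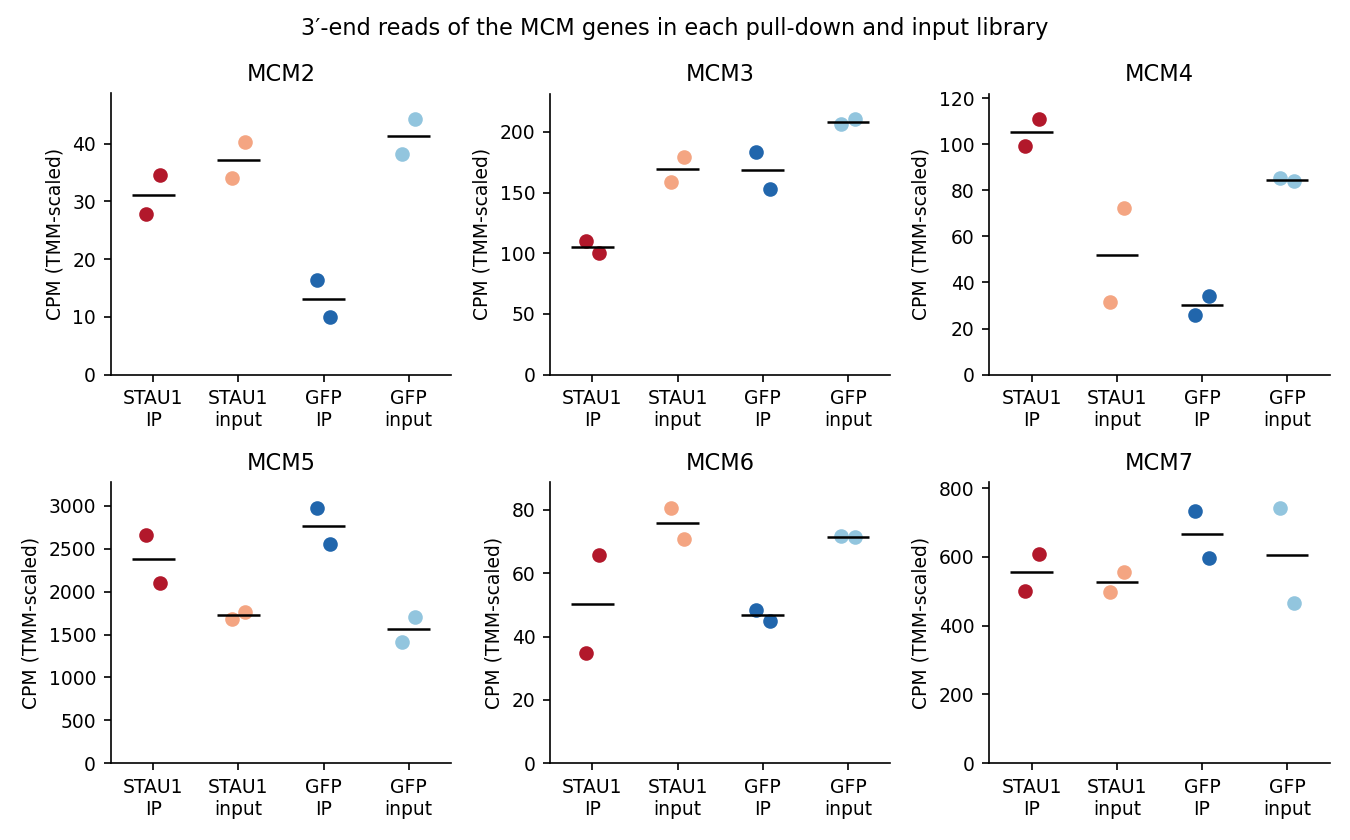
TMM-scaled CPM (y axis, linear, from 0) of each MCM gene in the 8 pull-down and input libraries; points are libraries and bars are means of 2. The MCM4 points of the STAU1 IP (99.2 and 111 CPM) stand above all its other points, and the MCM2 points of the GFP IP (16.4 and 9.98 CPM) stand below all its other points.

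The STAU1 IP libraries held 6212606 and 5727812 reads, the GFP IP libraries 1291888 and 1245270, the inputs 5567893 to 9655646 and the fractions 2799226 to 3483937. MCM genes took 0.330% to 0.453% of the IP reads, 0.220% to 0.240% of the input reads and 0.0507% to 0.137% of the fraction reads. The GFP IP was the thinnest part, with 24 and 14 reads for MCM2 and 38 and 48 for MCM4. STAU1 input replicate 1 stood apart from the other inputs, since 99156 sites had a read in it and 175098 in STAU1 input replicate 2. The GFP inputs had 151066 and 182819 such sites. STAU1 input replicate 1 was also the shallowest input, with 5567893 reads against 9655646 in replicate 2, and these site counts were not adjusted for depth. Values of whole genes that rest on STAU1 input replicate 1 are given with and without it. The tests of change at single sites were made only with all libraries.

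The first comparison asked which MCM mRNAs the STAU1 pull-down held above or below its own input. MCM4 was higher in the STAU1 IP and MCM3 was lower, and the other 4 genes passed the test in neither direction. This 1 gene higher and 1 lower among 6 stand against 3.89% of all 26605 tested windows called higher and 4.07% called lower, where every other site of the table had been put into windows of the same size. The median log2 change of the 6 was -0.09, against 0.12 over all windows tested. All 6 were among the 6039 windows with an average log2 CPM of at least 4, where calls were more frequent, at 11.0% higher and 14.7% lower. Calls here and below are edgeR quasi-likelihood tests over all windows, with a Benjamini-Hochberg adjusted p under 0.05.

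MCM4 had 99.2 and 111 CPM in the STAU1 IP and 31.7 and 72.1 CPM in the STAU1 input. No IP library overlapped an input, and the lower of the inputs was the library that stood apart. The log2 change was 1.01 ± 0.30 (SE; adjusted p = 0.0413 by edgeR), a fold of 2.01. Without STAU1 input replicate 1 it was 0.48 and not called (edgeR adjusted p = 0.589), and without STAU1 input replicate 2 it was 1.71. It was also not called without STAU1 IP replicate 2 (0.92, edgeR adjusted p = 0.0809) and with windows of 2000 nt (0.69, edgeR adjusted p = 0.104). Over the 16 alternatives the adjusted p from edgeR or DESeq2 ranged from 0.000143 to 0.589, and 13 of them kept the call.

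MCM3, the subunit that binds the acetyltransferase MCM3AP, had 109.9 and 99.9 CPM in the STAU1 IP and 159 and 179 CPM in the STAU1 input. Both IP libraries lay below both inputs, with a log2 change of -0.69 ± 0.19 (SE; adjusted p = 0.0329 by edgeR), a fold of 0.620. Its call was kept in 11 of 16 alternatives. It was lost without either STAU1 IP replicate (edgeR adjusted p = 0.107 without replicate 1 and 0.224 without replicate 2), without STAU1 input replicate 2, with library totals in place of TMM, and at its single main site, with values between -0.47 and -0.75 in these.

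MCM5, 1 of the gate subunits, had 2666 and 2100.5 CPM in the STAU1 IP and 1685 and 1766 CPM in the STAU1 input. Both IP libraries were above both inputs, but the log2 change of 0.47 ± 0.16 (SE) was not called (adjusted p = 0.087 by edgeR). It was called in 5 of 16 alternatives, among them RLE size factors (0.52), library totals (0.69) and DESeq2 (0.52). MCM6, the CDT1-binding subunit, had 34.9 and 65.8 CPM in the STAU1 IP and 80.7 and 70.7 CPM in the STAU1 input. Both IP libraries were below both inputs but far from each other, and the log2 change of -0.59 had a 95% interval of -1.16 to -0.02 and an adjusted p of 0.216 by edgeR. Without STAU1 IP replicate 2 it was -1.12 and was called (edgeR adjusted p = 0.0371), the 1 of 15 alternatives in which it passed. MCM2 had 27.8 and 34.5 CPM in the STAU1 IP and 34.1 and 40.3 CPM in the STAU1 input, which overlapped (log2 -0.26, 95% interval -0.90 to 0.39). MCM7 overlapped too, with 500.4 and 609.7 CPM in the STAU1 IP and 497 and 557 CPM in the STAU1 input (log2 0.07, 95% interval -0.35 to 0.50).

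The pull-down of FLAG-GFP asked the same of a protein not known to bind RNA. MCM2 and MCM4 were lower in the GFP IP than in the GFP input, MCM5 was higher, and MCM3, MCM6 and MCM7 passed in neither direction. Over all windows 2.57% were called higher and 5.13% lower, and over those with an average log2 CPM of at least 4 the shares were 8.18% and 20.5%. The median log2 change of the 6 was -0.46, against -0.13 over all windows.

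MCM2 had 16.4 and 9.98 CPM in the GFP IP and 38.3 and 44.2 CPM in the GFP input. Both IP libraries were far below both inputs, at a log2 of -1.64 ± 0.36 (SE; adjusted p = 0.00529 by edgeR), a fold of 0.321. The GFP IP held only 24 and 14 of its reads, and without GFP IP replicate 2 it was -1.38 and lost its call (edgeR adjusted p = 0.0657; range over 16 alternatives 0.000296 to 0.0657).

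MCM4 had 25.9 and 34.2 CPM in the GFP IP and 85.2 and 83.9 CPM in the GFP input. Here too the groups were well apart, with a log2 of -1.49 ± 0.33 (SE; adjusted p = 0.00577 by edgeR), a fold of 0.356. With windows of 2000 nt it was -0.83 and lost its call (edgeR adjusted p = 0.0626; range over 16 alternatives 7.25e-06 to 0.0626). MCM5 moved the other way, with 2981 and 2555 CPM in the GFP IP and 1417 and 1702 CPM in the GFP input. Its log2 change was 0.83 ± 0.16 (SE; adjusted p = 0.00228 by edgeR), a fold of 1.77, and the call was lost without GFP IP replicate 1 (0.65, edgeR adjusted p = 0.0835; range over 16 alternatives 9.68e-11 to 0.0835). MCM5 was thus higher in the pull-down of the unrelated protein, while its change in the STAU1 pull-down missed the threshold. The 2 changes were not shown to differ, since the test of one against the other, given below, did not call MCM5 (log2 -0.36, adjusted p = 0.556 by edgeR).

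MCM3 had 184 and 153 CPM in the GFP IP and 206 and 211 CPM in the GFP input (log2 -0.31, 95% interval -0.72 to 0.11). MCM6 had 48.4 and 44.9 CPM in the GFP IP and 71.7 and 71.5 CPM in the GFP input, both IP libraries below both inputs, but was not called (log2 -0.62, adjusted p = 0.260 by edgeR). MCM7 had 733 and 598 CPM in the GFP IP and 744 and 465 CPM in the GFP input, where the inputs spanned the IP libraries (log2 0.14, 95% interval -0.29 to 0.57).

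**Figure D2:**
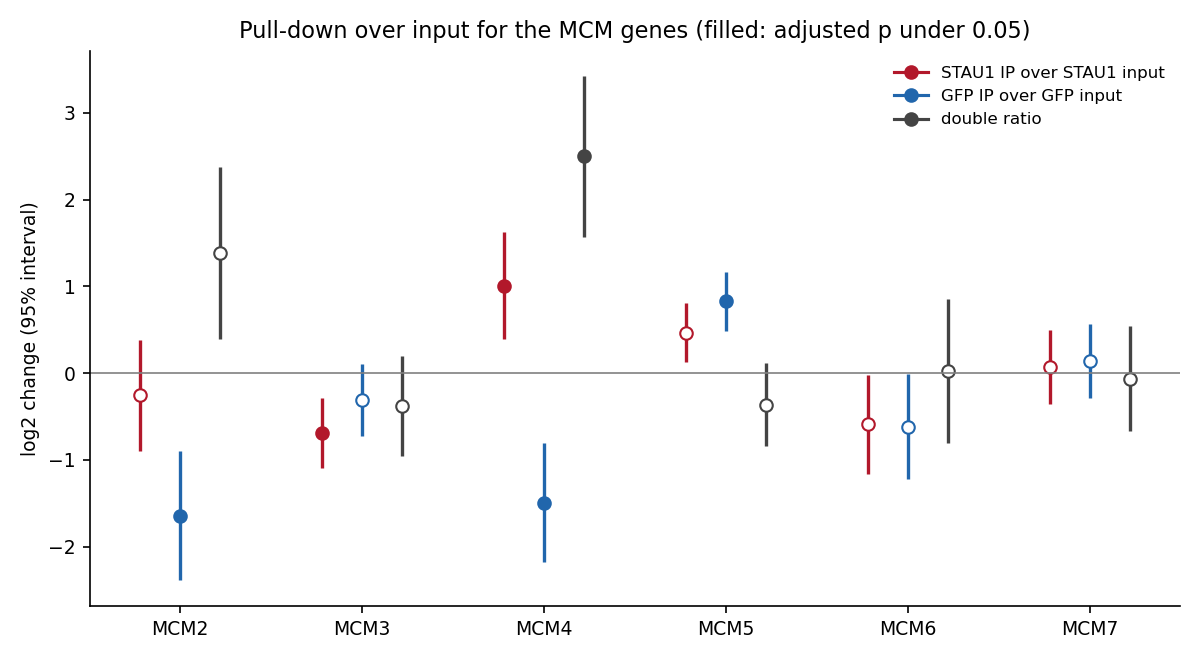
Log2 change (y axis) with its 95% interval from the edgeR fit for each MCM gene (x axis) in the STAU1 IP over input (red), the GFP IP over input (blue) and the double ratio (grey); filled points passed an adjusted p of 0.05. MCM4 is at 1.01, -1.49 and 2.50, with all 3 filled, and MCM7 lies near 0 in all 3.

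The double ratio, in which the change in the STAU1 pull-down is divided by that in the GFP pull-down, asked which MCM mRNAs the STAU1 pull-down held beyond the tagged control. MCM4 was the 1 gene of 6 that passed, in the higher direction, and 0 were lower. Over all windows edgeR called 0.962% higher and 0.335% lower, and over those with an average log2 CPM of at least 4 the shares were 3.84% and 1.18%. At an unadjusted p under 0.05, edgeR gave 2 members higher, MCM2 and MCM4, and 0 lower. All windows were not counted at that threshold. DESeq2 called MCM4 higher and 0 members lower, with 415 of 26605 windows higher and 347 lower. The median log2 double ratio of the 6 was -0.02, against 0.27 over all windows tested and 0.18 over the 6039 windows with an average log2 CPM of at least 4.

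For MCM4 the log2 double ratio was 2.50 ± 0.44 (SE; adjusted p = 0.00567 by edgeR), a fold of 5.66 with a 95% interval of 1.57 to 3.43 on the log2 scale. It combined a STAU1 IP above its input with a GFP IP below its input. The call was kept in 16 of 16 alternatives, with values from 1.53 to 3.47 and adjusted p from 6.32e-09 to 0.043 (edgeR or DESeq2). The lowest value came from windows of 2000 nt, which take in the proximal site described further on. Without STAU1 input replicate 1 it was 2.04, and without STAU1 input replicate 2 it was 3.27. It rests on the 38 and 48 reads of MCM4 in the GFP IP.

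MCM2, with a log2 double ratio of 1.38 ± 0.47 (SE), was not called (adjusted p = 0.191 by edgeR). Its STAU1 IP and input overlapped, and its GFP IP lay below its input. It was called in 0 of 16 alternatives, with values from 1.11 to 1.81. MCM3 (-0.38, 95% interval -0.96 to 0.20), MCM5 (-0.36, -0.84 to 0.11), MCM6 (0.03, -0.80 to 0.86) and MCM7 (-0.07, -0.67 to 0.54) had intervals that include 0. The widths of these intervals set what the double ratio can show at this depth.

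Several sites made up the MCM4 value, and they are given singly, since a test of whether they changed unequally was not passed. On chromosome 8 (plus), the site at 48890483 is the given end itself and had 528 and 452 reads in the STAU1 IP, 92 and 401 in the STAU1 input, while the GFP IP held 19 and 16 of its reads and the GFP input 399 and 418. In CPM it had 81.6 and 74.5 in the STAU1 IP against 16.5 and 45.6 in the STAU1 input. It had 13.1 and 11.7 in the GFP IP against 56.7 and 53.6 in the GFP input. It was thus high in both STAU1 IP libraries and low in both GFP IP libraries. At this single site the log2 change was 1.32 ± 0.35 for STAU1 (SE; adjusted p = 0.0313 by edgeR) and -2.15 ± 0.42 for GFP (SE; adjusted p = 0.00291 by edgeR). This test was not repeated without STAU1 input replicate 1, which held the 92 reads. Among the 33744 sites tested singly 3.06% were called higher and 2.99% lower in the STAU1 pull-down, 2.11% higher and 3.99% lower in the GFP pull-down, and 0.53% higher and 0.157% lower in the double ratio.

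The site 234 nt downstream, at 48890717, had fewer reads. It had 11.9 and 20.4 CPM in the STAU1 IP, 7.0 and 12.0 in the STAU1 input, 3.46 and 5.10 in the GFP IP and 15.1 and 12.1 in the GFP input. Both GFP IP libraries lay below both GFP inputs, and STAU1 IP and input overlapped. Its log2 double ratio was 2.42 ± 0.80 (SE), which was not called (adjusted p = 0.212 by edgeR).

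Both of the larger upstream sites lacked such a separation. The site at 48889550, at -933 nt from the given end, had 5.56 and 12.9 CPM in the STAU1 IP, 6.46 and 11.6 in the STAU1 input, 8.99 and 15.3 in the GFP IP and 10.9 and 15.1 in the GFP input, and all 4 groups overlapped. The site at 48889482 had 1873 reads in all but lay at -1001 nt, 1 nt outside the window, and so was not counted in MCM4. It had 41.3 and 49.8 CPM in the STAU1 IP, 29.2 and 45.6 in the STAU1 input, 32.5 and 46.6 in the GFP IP and 33.4 and 50.6 in the GFP input, again overlapping in every pair of groups. The log2 double ratios were 0.12 at 48889550 (95% interval -1.56 to 1.81) and 0.37 at 48889482 (95% interval -0.60 to 1.33).

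**Figure D3:**
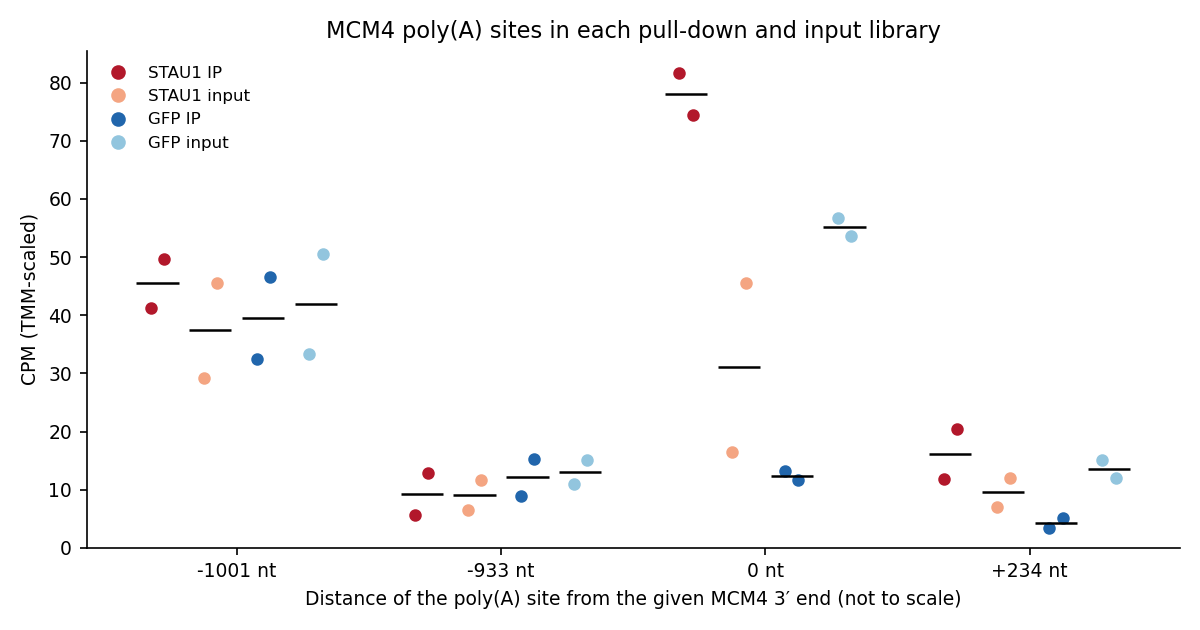
TMM-scaled CPM (y axis) at the 4 MCM4 poly(A) sites with the most reads, placed in order of their distance in nt from the given 3′ end (x axis, not to scale); points are libraries, bars are means of 2. The groups separate at 0 nt, where the STAU1 IP has 81.6 and 74.5 CPM and the GFP IP 13.1 and 11.7 CPM, and overlap at -1001 and -933 nt.

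As a share of all MCM4 reads within 2000 nt, the site at 48890483 held 56.9% and 44.5% in the STAU1 IP, 27.3% and 38.5% in the STAU1 input, 20.2% and 14.3% in the GFP IP and 47.6% and 40.1% in the GFP input. The site at 48889482 held 28.8% and 29.8% in the STAU1 IP, 48.4% and 38.5% in the STAU1 input, 50.0% and 57.1% in the GFP IP and 28.0% and 37.8% in the GFP input. The share of 48890483 was therefore higher in the STAU1 IP than in its input and lower in the GFP IP than in its input. For this site no IP overlapped its own input. Whether the sites of a gene differed in their change was tested with edgeR's diffSpliceDGE. With 2000-nt windows, a choice made after the tables were read, the site at 48890483 deviated from the rest of MCM4 by a log2 of 1.29 in the double ratio, which was not called (edgeR adjusted p = 0.625 over 17100 sites). Of those sites 0.0292% were called in the double ratio, 0.234% for the STAU1 pull-down and 0.0643% for the GFP pull-down. With 1000-nt windows, which leave out the proximal site, the deviation was 0.63 (edgeR adjusted p = 1.00, with 0.0209% of 14364 sites called). The difference between the MCM4 sites therefore failed the correction, which does not show that the sites changed alike, since this test missed most changes in simulated libraries.

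The other genes had 1 dominant end each, given here for the 8 pull-down and input libraries. MCM5 ended at 35820494 on chromosome 22 for 98.4% to 99.1% of its reads, and a second site at 35821423, 928 nt beyond the given end, held 0.870% to 1.57%; in the fractions the second site held 7.79% in KO polysomes, 4.80% in KO cytoplasm, 4.83% in WT polysomes and 3.85% in WT cytoplasm. MCM7 ended at 99690404 on chromosome 7 for 91.6% to 96.8% of its reads, with a second site at 99690356 that held 2.29% to 7.24%. MCM3 ended at 52128813 on chromosome 6 for at least 97.2% of its reads. MCM2 ended at 127341276 on chromosome 3 for 71.4% of its 14 reads in GFP IP replicate 2, for 99.45% in STAU1 input replicate 1 and for all reads in the other 6 of these libraries. At MCM6 the site 2 nt from the given end, at 136597198 on chromosome 2, had 25 reads in the 8 libraries together. In contrast 2832 reads lay at 136598015, at -819 nt, so the MCM6 values are those of this shorter form. No site of an MCM gene was called for a change in its share, in the STAU1 pull-down, the GFP pull-down or the double ratio (edgeR diffSpliceDGE, where 0.139%, 0.0278% and 0.0209% of 14364 sites were called). In this test 1 member site in the GFP pull-down and 1 in the double ratio had an unadjusted p under 0.05. Both were 48889550 of MCM4, and all sites were not counted at that threshold.

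The cells with STAU1-FLAG and those with FLAG-GFP were compared through their inputs. No MCM gene was called in either direction (edgeR, with 0.0113% of windows higher and 0 lower). At an unadjusted p under 0.05 in edgeR MCM4 was the 1 member, and all windows were not counted at that threshold. DESeq2 called 0 of 6, with 11 of 26605 windows higher and 0 lower. No single MCM site was called by edgeR either, against 0.00889% of sites higher and 0 lower. MCM4 had a log2 of -0.69 for STAU1 input over GFP input, with a 95% interval of -1.31 to -0.08. This difference followed STAU1 input replicate 1: it was -0.22 without that library and -1.46 without STAU1 input replicate 2, where it was called (edgeR adjusted p = 0.00798; range over 16 alternatives 0.00798 to 1.00). The other 5 genes lay between -0.30 for MCM3 and 0.15 for MCM5.

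In the cell fractions each mRNA's level in polysomes, the ribosome-laden complexes that carry mRNAs under translation, was set against its level in cytoplasm. MCM2 and MCM5 had by far lower levels in polysomes than in cytoplasm in both genotypes, MCM3, MCM4 and MCM7 had moderately lower ones, and MCM6 differed least. In KO cells 5 of 6 genes were lower by at least 1.5-fold and in WT cells 5 of 6, the same 5 in each, with MCM6 the exception. Over the 4785 windows with at least 50 reads in every fraction library, 12.9% were lower and 8.67% higher by that fold in KO cells, and 16.1% lower and 10.5% higher in WT cells. The median log2 polysome over cytoplasm of the 6 was -1.17 in KO and -0.95 in WT cells, against -0.0023 and -0.05 over all 4785 windows. With 1 library a group there is no replicate check and no test, and the intervals below are exact 95% counting intervals, which cover counting error only.

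MCM2 had 75 reads in KO polysomes against 254 in KO cytoplasm, and 53 in WT polysomes against 182 in WT cytoplasm. Its log2 polysome over cytoplasm was -2.09 (-2.48 to -1.72) in KO cells and -2.02 (-2.49 to -1.57) in WT cells, a level below which 0.543% of windows lay in KO and 0.648% in WT cells. MCM5 had 187 CPM in KO polysomes against 603 CPM in KO cytoplasm, and 125 CPM in WT polysomes against 411 CPM in WT cytoplasm. Its log2 ratio was -1.69 (-1.82 to -1.57) in KO cells and -1.72 (-1.89 to -1.54) in WT cells, with 1.11% and 1.32% of windows lower. The partners at the gate of the ring thus had the lowest ratios of polysome to cytoplasm of the 6. Each ratio is relative to the other mRNAs of its library and does not give the fraction of an mRNA that was in polysomes.

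MCM3 had 63.6 CPM in KO polysomes against 148 CPM in KO cytoplasm, and 57.4 CPM in WT polysomes against 109.6 CPM in WT cytoplasm. MCM4 had 65.6 CPM in KO polysomes against 143 CPM in KO cytoplasm, and 68.8 CPM in WT polysomes against 131 CPM in WT cytoplasm. MCM7 had 192 CPM in KO polysomes against 361 CPM in KO cytoplasm, and 149 CPM in WT polysomes against 291 CPM in WT cytoplasm. These 3 genes had similar log2 ratios, -1.22, -1.12 and -0.91 in KO cells and -0.93, -0.92 and -0.97 in WT cells, for MCM3, MCM4 and MCM7 in that order. MCM6 had 63.8 CPM in KO polysomes against 88.8 CPM in KO cytoplasm, and 58.8 CPM in WT polysomes against 61.4 CPM in WT cytoplasm. Its log2 ratio was -0.48 (-0.73 to -0.22) in KO cells and -0.06 (-0.38 to 0.26) in WT cells, and the interval in WT cells includes 0.

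The MCM4 sites with the most reads had overlapping intervals in this readout. The site at 48890483 had a log2 polysome over cytoplasm of -1.09 (-1.34 to -0.84) in KO cells and -1.01 (-1.30 to -0.72) in WT cells. The proximal site at 48889482 had -1.42 (-1.72 to -1.13) in KO cells and -1.12 (-1.47 to -0.77) in WT cells, with wide overlap in WT cells and a narrower one in KO cells. The smaller sites lay further apart, with wider intervals. At 48890717 the ratio was -0.65 (-1.35 to 0.05) in KO cells and -0.006 (-0.86 to 0.86) in WT cells. At 48889550 it was -2.17 (-3.23 to -1.23) in KO cells and -1.41 (-2.52 to -0.38) in WT cells, with 12 reads in each polysome library. Of the MCM4 reads within 2000 nt, 48890483 held 52.5% in KO polysomes, 47.5% in KO cytoplasm, 51.6% in WT polysomes and 53.0% in WT cytoplasm. The site further downstream, 48890717, held 8.17% in KO polysomes, 5.44% in KO cytoplasm, 8.54% in WT polysomes and 4.38% in WT cytoplasm.

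**Figure D4:**
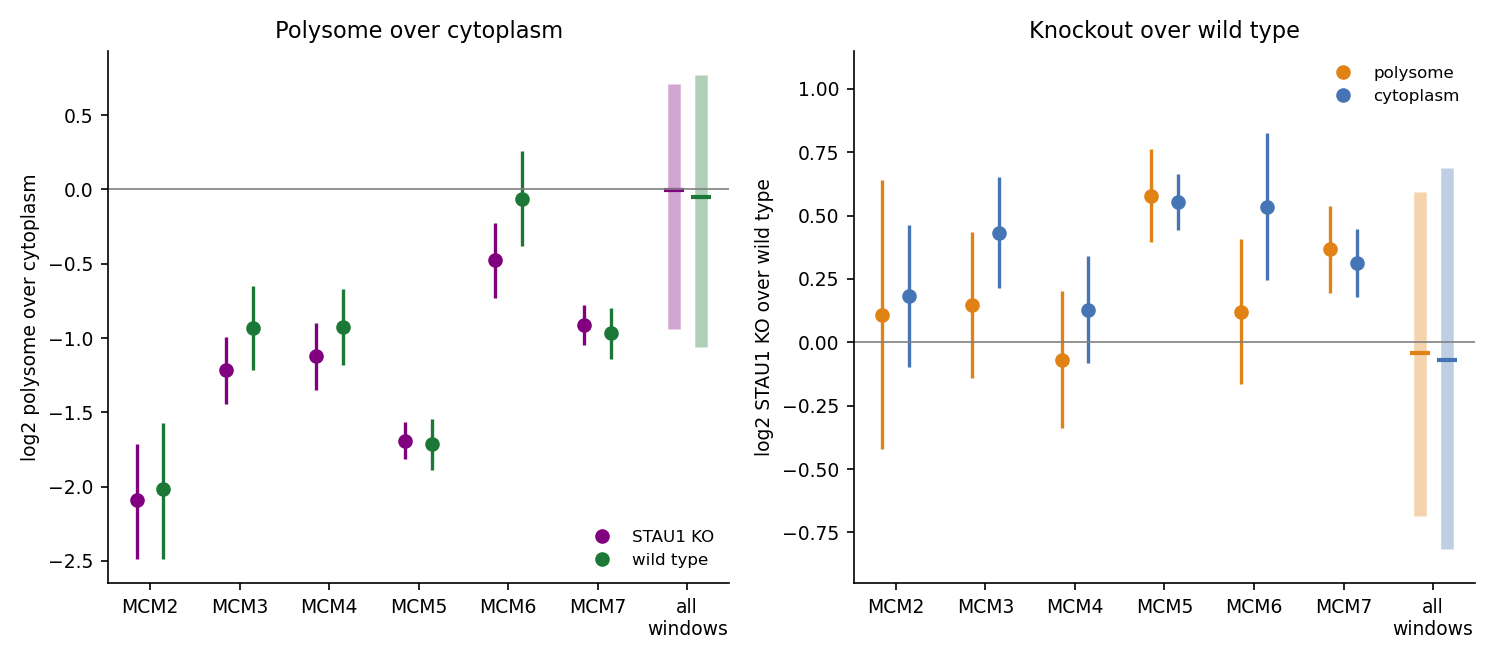
Left, log2 polysome over cytoplasm (y axis) of each MCM gene in KO and WT cells; right, log2 KO over WT in polysomes and cytoplasm. Points are single libraries' ratios with exact 95% counting intervals, and the broad bars at the right of each panel span the lowest to the highest 5% of 4785 windows, with the median as a dash. MCM2 (-2.09 in KO and -2.02 in WT) and MCM5 (-1.69 and -1.72) lie below the broad bars in both genotypes, MCM3 (-1.22) and MCM4 (-1.12) in KO cells, and no gene lies outside them for KO over WT.

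Between KO and WT cells the differences of the 6 genes stayed below the fold used, for MCM5 only just. MCM5 was 1.47-fold higher in KO cytoplasm and 1.49-fold higher in KO polysomes, above 92.1% and 94.5% of windows. Its second site at 35821423 had the highest values of the listed sites. There log2 KO over WT was 0.87 (0.32 to 1.45) in cytoplasm and 1.27 (0.48 to 2.12) in polysomes, with only 18 reads in WT polysomes. None of the 6 genes was 1.5-fold higher or lower in KO than in WT cells, in cytoplasm (7.21% of 4785 windows higher and 11.9% lower) or in polysomes (5.25% higher and 8.13% lower). In cytoplasm all 6 log2 values were above 0, against a median of -0.07 over all windows, whose share above 0 was not counted. MCM5 had 0.55 (0.44 to 0.66), MCM6 0.53 (0.24 to 0.83), MCM3 0.43 (0.21 to 0.65) and MCM7 0.31 (0.18 to 0.45). The intervals of MCM2 (0.18, -0.10 to 0.46) and MCM4 (0.13, -0.08 to 0.34) included 0. MCM4, the lowest of the 6, was above 68.5% of windows. In polysomes MCM5 had 0.58 (0.40 to 0.76) and MCM7 0.37 (0.20 to 0.54), while the intervals of MCM2, MCM3, MCM4 and MCM6 included 0. With library totals in place of TMM, 2 genes in cytoplasm and 1 in polysomes passed 1.5-fold in the higher direction. Each of the 4 libraries enters a polysome ratio and a KO ratio, so these values are not independent. These mRNAs follow the cell cycle, and in bulk RNA more cells near S phase and more RNA per cell cannot be told apart.

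The polysome ratio itself differed between the genotypes by less than 1.5-fold for every one of the 6 genes. KO minus WT was -0.41 for MCM6 (-0.81 to -0.02, a log-normal counting interval), -0.29 for MCM3 (-0.64 to 0.07), -0.20 for MCM4 (-0.53 to 0.14), -0.08 for MCM2 (-0.65 to 0.50), 0.02 for MCM5 (-0.19 to 0.23) and 0.05 for MCM7 (-0.16 to 0.27). MCM6 was the 1 gene whose counting interval left out 0, but 10.8% of all windows had a lower value than MCM6. How many windows had an interval that left out 0 was not counted. Over all windows 4.72% were lower by 1.5-fold and 6.71% higher.

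Although the 6 products act as one ring, their profiles over the 8 pull-down and input libraries did not run together. The Pearson correlation of a gene's log2 CPM with the mean of the 6 was 0.91 for MCM2, 0.76 for MCM4, 0.59 for MCM6, 0.21 for MCM3, -0.06 for MCM7 and -0.73 for MCM5, over 8 libraries that share 4 groups. The 3 other windows most like the mean of the 6, among 6033 with an average log2 CPM of at least 4, were at 28120052 on chromosome 13 minus (r = 0.98), 6443597 on chromosome 7 plus (0.98) and 35280175 on chromosome 20 minus (0.98). Like MCM2, these had a low GFP IP over input, at log2 values of -1.68, -1.38 and -1.33, and a STAU1 IP over input near 0, at -0.07, -0.08 and 0.05. The mean contains each of the 6 genes itself, and the windows were picked on these same libraries. Their likeness to MCM2 in these ratios therefore follows from the choice. They are named by position only.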

How the data were processed

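The submitters' processing notes name STAR and hg19 for the 3'READS+ libraries; versions, settings and how sites were clustered are not given in the sources used here. Unnormalized read counts for each poly(A) site, 1 column per library, were deposited in 1 table of pull-downs and 1 of fractions, which were scaled separately. All per-sample columns were used. The members, lists and tests were chosen with earlier results of these data known. Sites were summed in 6 MCM windows (1000 nt either side), and every other site in windows of equal size around the remaining site with the most reads. For windows and single sites the test was edgeR's quasi-likelihood test (version 4.0.16, R 4.3.3) on 8 libraries in 4 groups, with TMM, filterByExpr by group and Benjamini-Hochberg adjustment. Site use was tested with diffSpliceDGE. Both were first tried on simulated data for the double ratio. The window test found 0% of 2-fold, 16% of 4-fold and 36% of 8-fold changes. Among windows with an average log2 CPM of at least 4 it found 87.5% of 8-fold changes. The site-use test found 5% of 4-fold and 13% of 8-fold changes. A window or site that was not called is therefore not shown to be unchanged. Alternatives were RLE size factors, library totals, no filterByExpr (at least 10 reads), DESeq2 1.42.0, windows of 250 and 2000 nt, the single main site, each library left out, and a replicate block. Fractions (polysome over cytoplasm, KO over WT) have 1 library each, no test and exact counting intervals. Their values, without intervals, were also taken with a pseudocount of 1. No source says whether PCR copies were removed. The counting intervals take each read as independent, so they cover counting error at most and may be too narrow. The labels do not say whether replicates were separate cultures, so p-values reflect the spread among these samples alone, which may be technical. Named were all 6 members in every comparison and the 3 windows with the highest correlation to their mean. No site is paired with a gene in the tables and no hg19 annotation was used, so the list of other replication genes, the STAU1 transcript and markers of the cell line were not analysed here. Same-numbered libraries of an IP and its input did not deviate together (r = -0.04 for STAU1 and 0.03 for GFP over 6039 windows), so numbers were not taken as pairs.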

Additional observations from a re-analysis of the deposited data

Results flagged for a closer look

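MCM4 differed between the STAU1 and the GFP pull-down by the test of the difference itself, with a log2 double ratio of 2.50 for the gene (edgeR adjusted p = 0.00567) and 3.47 ± 0.55 (SE; edgeR adjusted p = 0.00392) at its site 48890483. In both replicates the STAU1 IP lay above both STAU1 inputs and the GFP IP below both GFP inputs. The site was among the named sites of an earlier look at these data, so its call here is not independent of that. Leaving out each library in turn gave 2.04 to 3.27 for the gene's double ratio. The value at the single site was not tested in this way. Without STAU1 input replicate 1 the STAU1 pull-down over its input was 0.48 and not called (edgeR adjusted p = 0.589). With 2000-nt windows, which take in the site 1 nt outside the window, the double ratio was 1.53 (edgeR adjusted p = 0.043), and neither pull-down over its input was called (0.69 for STAU1, edgeR adjusted p = 0.104; -0.83 for GFP, edgeR adjusted p = 0.0626).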

How the results depend on the processing

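Calls rested on 2 libraries a group and a thin GFP IP. Scaling moved the median log2 change of all windows from 0.12 to 0.34 (STAU1) and from -0.13 to 0.20 (GFP) with library totals, and to 0.02 (GFP) with RLE size factors; the share of calls that were higher was 48.9%, 54.6% and 69.6% (STAU1), 33.4%, 47.3% and 64.5% (GFP) and 74.2%, 60.1% and 56.9% (double ratio) with TMM, RLE and library totals. In the STAU1 pull-down, members called higher numbered 2 with RLE, library totals or DESeq2 and 0 with 2000-nt windows, and members called lower 0 with library totals or the single main site; leaving out 1 library gave 0 to 2 and 0 to 1. In the GFP pull-down, members called lower numbered 1 with 2000-nt windows (MCM4 at -0.83), and leaving out 1 library gave 1 to 2 lower and 0 to 1 higher. Windows called without 1 library ranged from 1453 to 3577 (STAU1), 1315 to 2950 (GFP), 291 to 1706 (double ratio, 345 with all) and 3 to 658 (inputs, 3 with all), with 0 to 1 member lower between the inputs. Windows called in the double ratio and between the inputs were 570 and 18 without filterByExpr, 762 and 11 with DESeq2, and 578 and 7 with a replicate block. The block changed no member's call; MCM6 in the double ratio turned to -0.0014 with it, -0.10 with RLE or DESeq2 and -0.11 with library totals. MCM3 in the GFP pull-down turned to 0.0503 with library totals. Without 1 library, uncalled values changed sign within -0.40 to 0.28 (MCM7) and -0.49 to 0.44 (MCM6) in the double ratio, -0.084 to 0.22 (MCM7, STAU1), -0.24 to 0.43 (MCM7, GFP), and between the inputs -0.50 to 0.15 (MCM7), -0.0185 to 0.28 (MCM5) and -0.0102 to 0.13 (MCM6). With library totals KO over WT gave 2 members higher in cytoplasm and 1 in polysomes. The polysome over cytoplasm ratios in KO cells also rose, to -0.90 for MCM4 and -1.47 for MCM5. These values lay above their counting intervals, for MCM4 only just. MCM6 has no 250-nt value, since its main site lies outside that window. The cause of these changes was not tested.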

Other observations

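On the plus strand opposite the MCM7 end, 4 sites within 1000 nt held 2906 reads in the pull-down table, and 8 sites held 1059 in the fractions; the other 5 genes had 0 reads on the opposite strand. There were 199 and 243 in the STAU1 IP against 394 and 742 in the STAU1 input (log2 ratio of the CPM means -1.21), and 80 and 38 in the GFP IP against 570 and 640 in the GFP input (-1.02), against fitted values of 0.07 and 0.14 for MCM7 itself. Polysome over cytoplasm was 0.05 in KO and -0.26 in WT cells on the opposite strand, against -0.91 and -0.97 for MCM7. No test was made of these differences, and the sites are not paired with a gene.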
